A study of Mus musculus with 6 samples.

Results

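The genes described here are the TRIM family outside class I, 55 of the 18193 genes that the arrays read. A gene was taken in when a probe set naming it alone carried a Trim symbol with a number or the symbol Pml. Trim9, Trim36, Trim46 and Trim67, the 4 class I members that this symbol rule matched, were left out. Family members with other symbols were not searched. The 55 genes were read by 106 probe sets, a probe set being a group of short oligonucleotides that together detect a transcript. Genes with several probe sets (30 of the 55) were read by the probe set with the highest mean signal, and the other 25 had only 1. No filter was set on low values, so all 55 genes have a value on every array.

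Adult retinas of 3 Trim9 KO mice and 3 WT littermates were compared, with 1 Affymetrix mouse genome array for each retina sample. The KO allele lacks exon 1 of Trim9, which Cre removed in a cross with CMV-cre mice, whose promoter is active in most tissues, so the loss is not limited to the retina. An age beyond adult is not given. A treatment note in the sample labels that speaks of embryos was not followed. Total RNA was amplified, labelled with biotin and hybridized, and the deposited signal is a linear intensity, with all arrays scaled to an equal trimmed mean.

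Most TRIM proteins share a RING finger, which gives ubiquitin ligase activity, followed by B-boxes and a coiled coil through which they assemble. They are sorted into classes by what follows the coiled coil: NHL repeats that bind RNA or cargo, a PHD finger with a bromodomain that reads histone tails, a PRY-SPRY domain that recognises a target protein, or other modules. Many PRY-SPRY members are known from antiviral defence, and several of them are induced by interferon, whereas NHL members are known from neurons and muscle. Class I, to which Trim9 belongs, carries a COS box that binds microtubules and a fibronectin repeat. The classes used here follow general knowledge of the family, and Trim12a, Trim61 and Trim80 were given none. Members without a RING were kept as a group of their own, whatever follows their coiled coil, so the other classes leave them out.

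The retinal identity of the samples was checked with marker genes. All 4 rod genes measured (Sag, Gnat1, Pde6b and Nrl) lay above the array median on every array. None of 4 lens genes did, but Crygs (2931) and Bfsp1 (2345) lay above it on Trim9 KO replicate 1. Of 5 pigment epithelium genes, 3 lay above it on all 6 arrays (Rpe65, Rlbp1 and Ttr). Rlbp1 also served as a Muller glia marker, so its signal does not single out pigment epithelium. How much lens or pigment epithelium the samples held was not tested. The brightest Trim9 probe set read 1498, 497 and 367 in Trim9 KO and 4226, 1767 and 1667 in WT, without overlap (log2 fold change -1.81, SE 0.99, adjusted p = 0.999 in limma). Of the other 3 Trim9 probe sets, 1 was also without overlap (-2.48), and in the remaining 2 the genotypes overlapped (-0.77 and -0.58). None of the 4 is tied to exon 1 in the sources used here. The arrays differed from one another in ways that the genotype does not follow. Their median intensity was 252 to 808 in Trim9 KO and 218 to 676 in WT. Trim9 KO replicate 1 correlated with the other 5 arrays at r = 0.47 to 0.52 across probe sets, against up to 0.89 between other arrays. The log2 ratio of the 3' to the 5' control of a gene grows with RNA degradation. For Gapdh it was 6.91 to 7.29 in Trim9 KO and -0.14 to 8.10 in WT, WT replicate 3 being the low one. The same ratio for beta-actin ordered the arrays differently. It was 1.49 in Trim9 KO replicate 1, the lowest array, and at least 6.42 in the other Trim9 KO arrays. In WT the beta-actin ratio was 1.78 to 4.30. The part of these differences in the results for TRIM genes was not tested. The 3 arrays per genotype limit the precision. The p-values rest on the spread between arrays of the same genotype, in which differences between mice and between arrays cannot be told apart.

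To ask which members were present in adult retina, each signal was set against the median of all probe sets on its own array. Of the 55 genes, 10 lay above it on all 6 arrays (18.2%), 7 on none, and 38 on 1 to 5 arrays. Over all genes, 33.7% lay above it on all 6. The 10 genes were Trim2, Trim32, Trim24, Trim33, Trim37, Trim23, Trim44, Trim27, Trim35 and Trim39. The 7 were Trim5, Trim6, Trim42, Trim47, Trim54, Trim72 and Trim75. Probe sets differ in how well they bind their transcripts, so signals are not ranked between genes, and a low signal does not show that a transcript was missing.

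In the NHL class (Trim2, Trim3, Trim32 and Trim71), 2 of 4 members were above the array median on every array. Trim2, whose protein ubiquitinates a neurofilament subunit in mouse axons, read 10678, 6694 and 16982 in Trim9 KO, against 18106, 9095 and 15166 in WT. Trim32, known from muscle and from a human muscular dystrophy, read 7145, 5406 and 29610 in Trim9 KO, against 31423, 14730 and 10426 in WT. In both genes the genotypes overlapped, and Trim9 KO replicate 3 and WT replicate 1 were the highest arrays of their genotypes. Trim3, a brain-enriched member, lay above the median on 5 arrays. Trim71, known from early embryos as a target of the let-7 microRNA, lay above it on 2, and it spanned 10.7 on WT replicate 1 to 1195 on WT replicate 2.

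In the PHD-bromodomain class of transcriptional cofactors, Trim24 and Trim33 were above the array median on all 6 arrays and Trim28 on 5. Trim33, a regulator of Smad4 signalling, read 6864, 6547 and 7232 in Trim9 KO, against 6756, 7782 and 3528 in WT. Trim28, the corepressor recruited by KRAB zinc finger proteins, read 85.1, 15992 and 13308 in Trim9 KO, against 7854, 5168 and 12403 in WT. Trim9 KO replicate 1 thus stood far below the other 5 arrays for Trim28, while Trim33 on the same array lay within its range elsewhere. Trim24, a cofactor of nuclear receptors, read 2367, 1614 and 701 in Trim9 KO, against 798, 1434 and 419 in WT, with overlap.

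Several small classes held a bright member. Trim37, the MATH domain member, which is mutated in the human growth disorder mulibrey nanism, read 11675, 21516 and 19075 in Trim9 KO, against 14950, 11762 and 7321 in WT. Trim23, which carries a GTPase domain of the ARF type, read 3056, 4269 and 4065 in Trim9 KO, against 3283, 2401 and 1555 in WT. Trim44, which has a zinc finger in place of the RING, read 20875, 29812 and 38651 in Trim9 KO, against 41518, 20936 and 20407 in WT. All 3 genes were above the array median throughout, with overlapping genotypes. Of the other members without a RING (Trim14, Trim16, Trim29 and Trim66), of the transmembrane class (Trim13 and Trim59) and of the filamin class (Trim45), none was above the median on every array.

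The PRY-SPRY class, the largest with 27 members, had 3 above the array median on every array (Trim27, Trim35 and Trim39) and 5 on none (Trim5, Trim6, Trim47, Trim72 and Trim75). Trim27, first known as the fusion partner of the Ret kinase, read 60827, 29903 and 19810 in Trim9 KO, against 17361, 27120 and 5107 in WT. Trim35 read 6570, 5466 and 10479 in Trim9 KO, against 6760, 6764 and 10964 in WT. The genotypes overlapped in both genes, with WT replicate 3 lowest for Trim27 and highest for Trim35. Trim25, which modifies the viral RNA sensor RIG-I, and Trim21, a cytosolic antibody receptor, were above the median on 5 arrays, the exception being Trim9 KO replicate 1 in both. Trim62, which the study stained in embryonic retina together with Trim2, Trim28, Trim32 and Trim44, read 288, 885 and 422 in Trim9 KO, against 524, 119 and 285 in WT, and was above the median on 3 arrays.

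None of the 5 class V members (Pml, Trim8, Trim31, Trim40 and Trim56), which end after the coiled coil or carry no known further domain, was above the median on every array. Pml, which builds the nuclear bodies of that name, was above it on 3 arrays and the antiviral gene Trim56 on 5. The COS box genes outside class I were dim. Trim54 and Trim63, which tag proteins of striated muscle for turnover, were above the median on 0 and 1 arrays, and Trim42, in class III, on 0. The 3 genes without a class were above it on 1 to 3 arrays. By comparison, 3 of the 4 class I genes that the symbol rule matched were above it on all 6 arrays. Because retinas were measured whole, fewer cells of a type and less RNA per cell cannot be told apart.

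**Figure D1:**
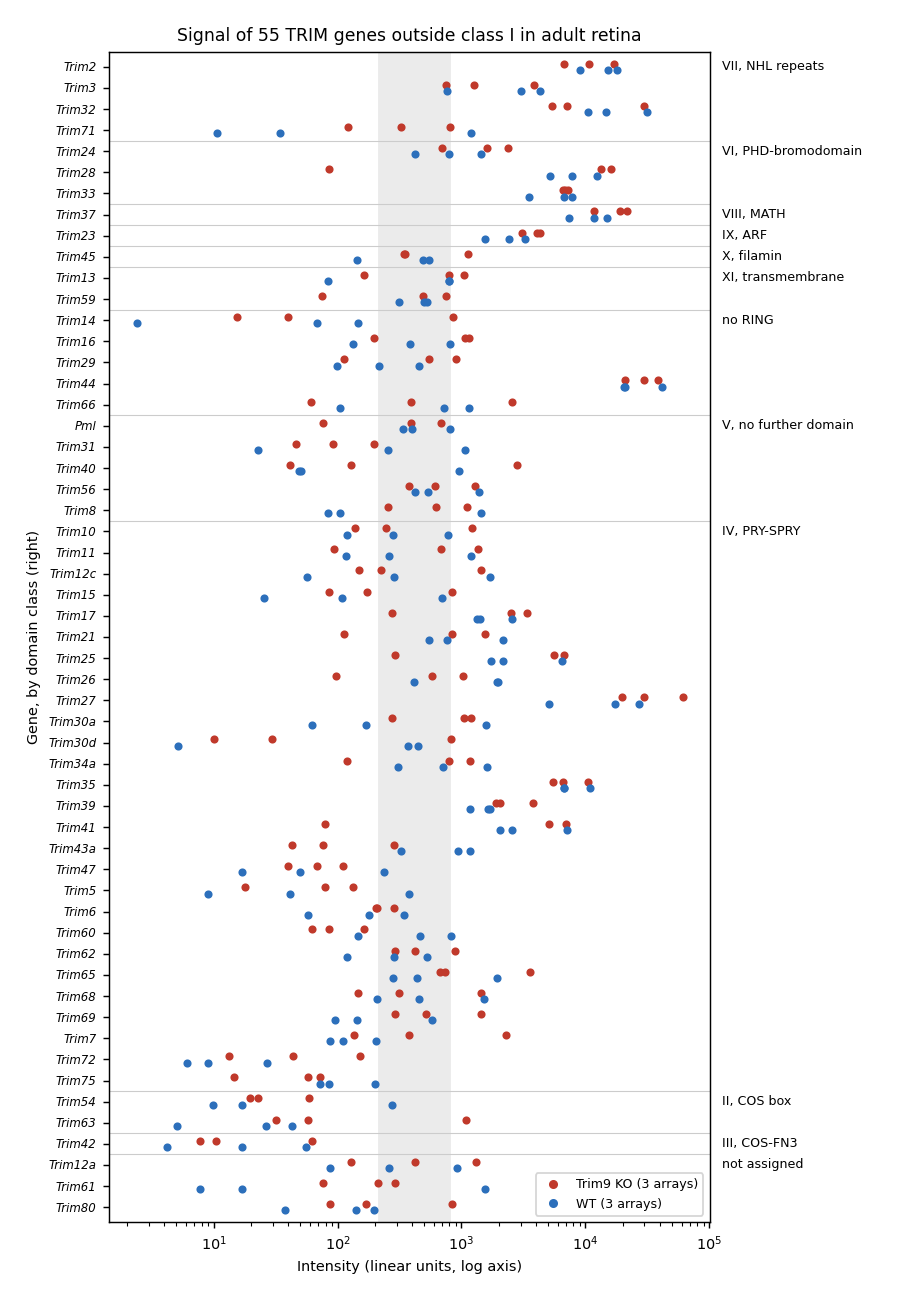
Signal of the 55 TRIM genes outside class I on each array, as linear intensity on a log axis, with genes grouped by domain class down the page. Red points are the 3 Trim9 KO arrays, blue points the 3 WT arrays, and the grey band spans the medians of the arrays (218 to 808). Trim2, Trim37, Trim44 and Trim27 lie to the right of the band on every array, and most PRY-SPRY genes straddle it.

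By median, the bright members also varied less between arrays than the rest. The SD of the log2 signal over the 6 arrays had a median of 0.56 in the 10 genes above the array median throughout, 1.51 in the 38 between, and 1.02 in the 7 that were never above it. All genes sorted in the same way gave 0.80, 1.55 and 1.16. The sorting and the SD used the same 6 values, so the sorting partly sets this order. The order is not read as a trait of the members. The steadiest members were Trim35 (SD 0.40), Trim33 (0.41) and Trim44 (0.47). The widest was Trim28 (2.78), and Trim41, picked here after its values were seen, was among the widest (2.36), with 79.1, 7001 and 5063 in Trim9 KO, against 7141, 2053 and 2570 in WT. Trim28 and Trim41 shared their lowest array, Trim9 KO replicate 1. That array was the lowest for 11 members and also the highest for 19, more than any other array, and WT replicate 2 was the highest for 15. Among the 45 members that were not bright throughout, those arrays held the highest value of 16 and 14 genes, and they were the 2 arrays with the highest median intensity. The median member lay below the median gene on every array, by 0.42 to 0.68 on the log2 scale in Trim9 KO and 0.20 to 1.18 in WT.

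**Figure D2:**
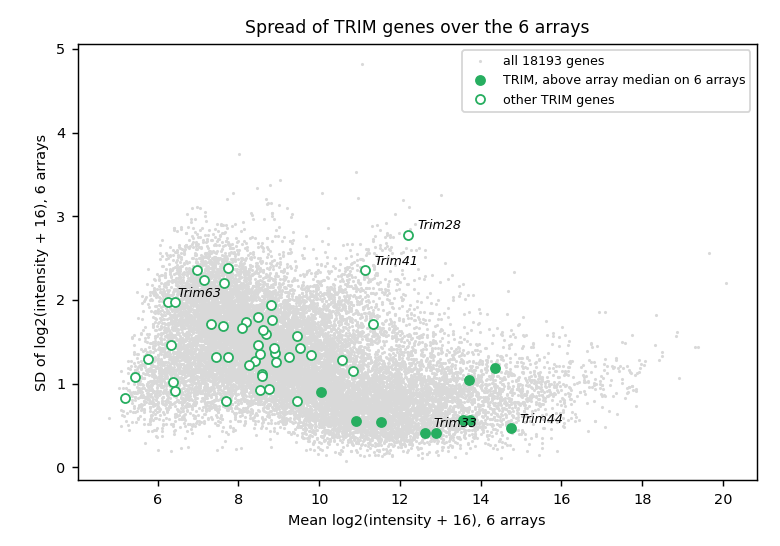
Standard deviation against mean of log2(intensity + 16) over the 6 arrays, for all 18193 genes (grey) and the TRIM genes outside class I. Filled green points are the 10 TRIM genes above the array median on all 6 arrays, and open points the other 45; Trim33 and Trim44 lie near the lower edge, while Trim28 and Trim41 lie high for their mean.

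Whether loss of Trim9 moved the other TRIM genes was asked with limma, fitted over all 45037 probe sets on log2(intensity + 16). None of the 55 genes passed an adjusted p of 0.05, and 0% of all probe sets did. The lowest adjusted p among the TRIM genes was 0.999. At an unadjusted p under 0.05 there was 1 TRIM gene, and 2.56% of all genes were called by that rule. The SE of the members' log2 fold changes was 0.91 to 1.70 (median 1.12), and a p that misses the threshold does not show that the genotypes were alike. Of the 55 genes, 32 had a higher and 23 a lower mean in Trim9 KO, with a median log2 fold change of 0.21, against 0.14 for all genes. With the array medians made equal the split was 26 higher and 29 lower and the median -0.11, against -0.19 for all genes.

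By class, the median log2 fold change was 0.04 in the PRY-SPRY class (14 higher, 13 lower), -0.03 in class V, -0.42 in the NHL class (1 higher, 3 lower), 0.27 in the PHD-bromodomain class, which is the value of Trim33, and 0.81 in the members without a RING (4 higher, 1 lower). With the array medians made equal, the PRY-SPRY median was -0.28 (-0.16 after quantile normalization) and the PHD-bromodomain median -0.053, and the 3 PHD-bromodomain genes were all lower once probe sets were averaged per gene (-0.074). Leaving out 1 array also turned the sign of both, to -0.23 and -0.077 without WT replicate 3, and that of class V, to 0.47 without WT replicate 2. Class V had 0.83 with probe sets averaged per gene. The NHL median was below 0 and that of the members without a RING above 0 in every setting run. These are medians of 4 and 5 genes, and the settings share the same arrays. Without WT replicate 1, the NHL class had 2 higher and 2 lower (-0.067), and the members without a RING 3 and 2 (0.30). The single genes of the MATH, ARF and filamin classes (Trim37, Trim23 and Trim45) had 0.63, 0.70 and 0.58. With probe sets averaged per gene Trim37 had -0.28 and Trim23 -0.48, and without WT replicate 2 Trim45 had 0.003. Each class held members whose genotypes overlapped, and the spread within the PRY-SPRY class (-2.62 to 1.86) enclosed the medians of all the others. For the genes stained in the study, the log2 fold changes were -0.35 for Trim2 (SE 0.93), -0.69 for Trim32 (SE 1.03), 0.82 for Trim62 (SE 0.99; -0.15 with probe sets averaged, its other probe sets having -2.16 and 0.89), 0.15 for Trim44 (SE 0.92; -0.18 with array medians equal) and -1.52 for Trim28 (SE 1.70). Without Trim9 KO replicate 1, the value for Trim28 was 0.87.

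Of the 55 genes, 2 had every Trim9 KO array below every WT array, Trim43a and Trim75, where 2.89% of all genes did. For Trim39 alone every Trim9 KO array was above, where 5.35% of all genes did. Trim75 overlapped after quantile normalization and with equal array medians, where Trim60 stood with Trim43a instead, and Trim39 overlapped with equal array medians. Those counts were close to or below what the percentages over all genes give. Trim43a, of a group of near-identical genes expressed in early mouse embryos, read 283, 43.3 and 77.0 in Trim9 KO, against 934, 1176 and 324 in WT (log2 fold change -2.62, SE 1.03, unadjusted p = 0.027 and adjusted p = 0.999 in limma). It was the member with the lowest unadjusted p, and its smallest gap was between 283 and 324. Trim75 read 58.2, 72.5 and 14.5 in Trim9 KO, against 201, 72.8 and 85.1 in WT, so that the groups were parted by less than 1 intensity unit and below the array median throughout (log2 fold change -1.09, SE 0.96). Trim39, which lies in the major histocompatibility region, read 3800, 1889 and 2039 in Trim9 KO, against 1629, 1169 and 1689 in WT (log2 fold change 0.72, SE 0.91). The smallest p that an exact permutation test of 3 against 3 arrays allows is 0.1, two-sided, and these 3 genes had it.

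The other members with low unadjusted p were Trim60 (log2 fold change -1.84), Trim63 (2.07), Trim7 (1.86), Trim69 (1.49), Trim26 (-1.53), Trim27 (1.30), Trim72 (1.21) and Trim30a (1.34), with unadjusted p of 0.093 to 0.30 in limma. In each of them the genotypes overlapped. Single arrays moved most of these values: without Trim9 KO replicate 1 they were 0.78 for Trim7, 0.54 for Trim72, 0.87 for Trim69, 0.86 for Trim27 and -0.59 for Trim26. Trim30a had 0.40 without WT replicate 1 and 2.59 without WT replicate 2, and Trim27 had 0.61 without WT replicate 3. With probe sets averaged per gene, Trim7 had 0.04, Trim27 0.10, Trim60 -0.60 and Trim26 0.55. Trim63, the muscle ligase MuRF1, read 1079, 32 and 57.6 in Trim9 KO, against 5.06, 26.7 and 42.6 in WT, so that the difference lay mostly in Trim9 KO replicate 1, and without that array it was 0.66. The summed intensity of 6 striated muscle markers (Acta1, Ckm, Myh1, Myh4, Tnnt3 and Ttn) was 6904, 3239 and 968 in Trim9 KO, against 1063, 2036 and 1061 in WT. None of these 6 markers was above the array median on all arrays, and their part in the Trim63 value was not tested. Trim72, which reseals muscle membranes, read 151, 44.0 and 13.2 in Trim9 KO, against 6.06, 26.9 and 9.06 in WT. Trim9 KO replicate 1 was again its highest array.

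**Figure D3:**
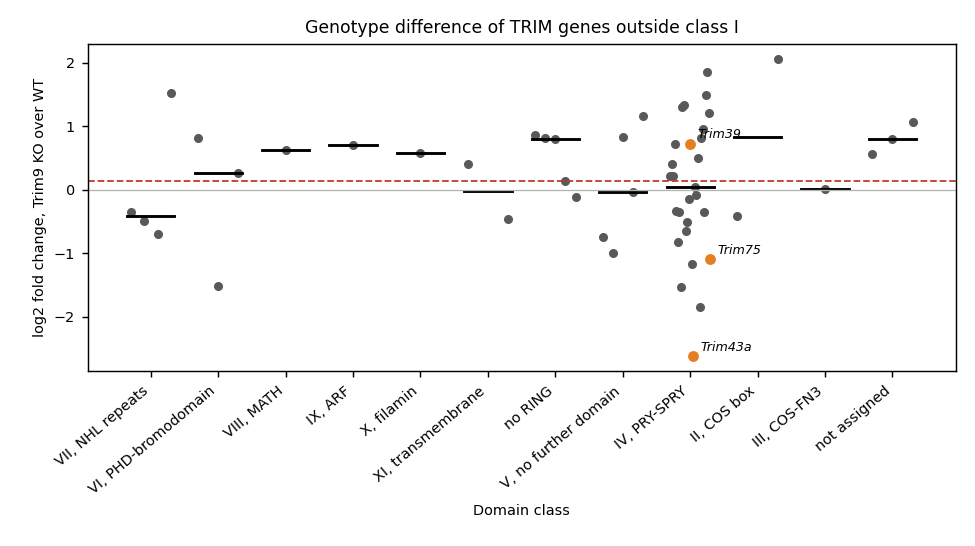
Log2 fold change of each TRIM gene outside class I (Trim9 KO over WT, limma), by domain class, with the class median as a black bar and the median of all genes (0.14) as a dashed red line. Orange points are the 3 genes whose Trim9 KO and WT arrays did not overlap, Trim39, Trim75 and Trim43a; all 3 are in the PRY-SPRY class.

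Probe sets of the same gene often disagreed in direction. Beside the 1 probe set that stood for the gene, the 30 genes with several probe sets had 51 others, of which 22 had the same sign as it and 29 the opposite sign. Both signs occurred in 21 genes and 1 sign in 9, and the median gap between the lowest and the highest probe set of a gene was 1.36 on the log2 scale. Over all 106 probe sets, 4 had every Trim9 KO array below every WT array (2.76% of all probe sets did) and 2 had every one above (5.16%). The 6 probe sets of Trim27 spanned -2.40 to 1.68. Its lowest read 53.3, 81.4 and 421 in Trim9 KO, against 548, 475 and 1542 in WT, and its highest read 21486, 17047 and 14948 in Trim9 KO, against 14485, 7401 and 1551 in WT. Both were without overlap, in opposite directions. For Trim26 a second probe set gave 2.63 beside -1.53, and for Pml the 3 probe sets spanned -0.74 to 2.33. The second probe set of Trim28 gave -1.38, near the first, but there the lowest array was WT replicate 1 and the highest WT replicate 3, at 6993. Only 5 genes had more than 1 probe set above the array median throughout.

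**Figure D4:**
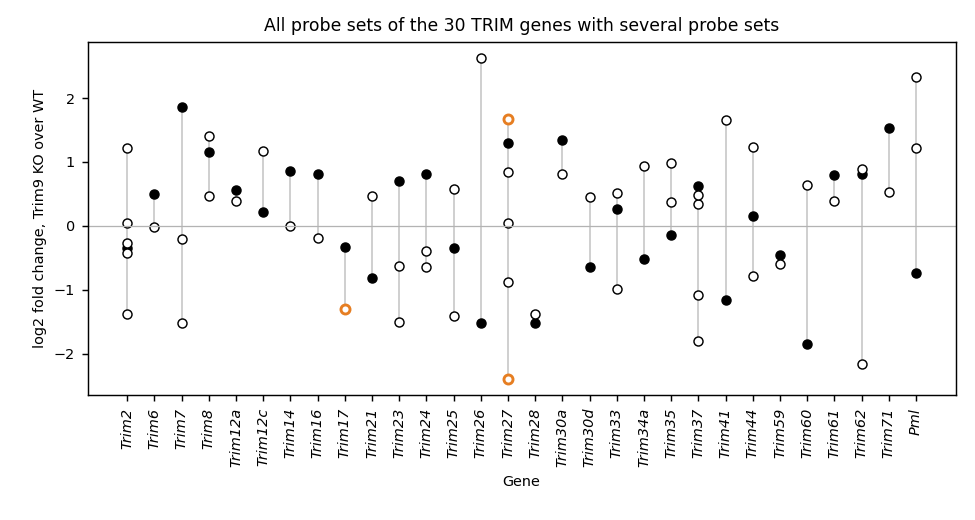
Log2 fold change (Trim9 KO over WT) of every probe set of the 30 TRIM genes that have several. Filled points are the probe sets that stand for the gene, open points the others, and orange rings probe sets whose genotypes did not overlap; lines cross 0 for 21 of the 30 genes, and Trim27 has a ring at each end.

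The members' places in the genome were looked up by gene ID, and all 55 were found in RefSeq. They fell on 13 chromosomes, with 13 genes on chromosome 7, 10 on chromosome 11 and 6 on chromosome 17. On chromosome 7, Trim6, Trim34a, Trim5, Trim12a, Trim12c, Trim30a and Trim30d followed one another with 0 to 3 other coding genes in each gap. This is the mouse counterpart of the human TRIM5 cluster, whose best known member blocks retroviral capsids in primates. These paralogs are close in sequence, and 5 further probe sets that name a TRIM gene and a second gene were not used, so the values within the cluster may share transcripts. None of the 7 was above the array median on every array. Trim30a, a mouse inhibitor of NF-kB signalling, read 1200, 1056 and 274 in Trim9 KO, against 62.1, 1592 and 170 in WT. Trim12c read 1438, 225 and 149 in Trim9 KO, against 283, 1699 and 56.4 in WT, and Trim12a 1307, 422 and 129 in Trim9 KO, against 258, 912 and 87.1 in WT. In all 3 genes WT replicate 2 and Trim9 KO replicate 1 were the highest arrays of their genotypes.

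Interferon acts on many of its target genes through a short response element in their promoters. The letters GAAANNGAAA, or TTTCNNTTTC on the other strand, were searched in RefSeq promoters of build GRCm38.p6 that run from 250 bases before to 50 bases after each annotated start. A promoter was given for 45 of the 55 genes, and 9 of these held the motif (20%), against 3.64% of 14367 genes. They were 7 genes of chromosome 7 (Trim21, Trim34a, Trim5, Trim12a, Trim12c, Trim30a and Trim30d), Trim26 on chromosome 17, and Trim2 at 1 of its 5 starts. The windows of 50 bases around the match are shown to let the paralogs be compared, 5′ to 3′ on the gene's own strand, with the motif in capitals. In Trim21 and Trim26 a further match overlaps the one marked.
Trim21, chr7:102565440-102565489, minus strand: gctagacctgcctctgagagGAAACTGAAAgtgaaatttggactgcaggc
Trim34a, chr7:104244447-104244496, plus strand: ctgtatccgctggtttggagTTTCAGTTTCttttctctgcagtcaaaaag
Trim5, chr7:104288126-104288175, minus strand: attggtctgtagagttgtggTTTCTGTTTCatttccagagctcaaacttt
Trim12a, chr7:104315456-104315505, minus strand: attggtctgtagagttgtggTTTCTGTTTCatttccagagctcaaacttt
Trim12c, chr7:104353349-104353398, minus strand: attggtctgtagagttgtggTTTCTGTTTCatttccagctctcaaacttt
Trim30a, chr7:104465200-104465249, minus strand: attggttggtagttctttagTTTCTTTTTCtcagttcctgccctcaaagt
Trim30d, chr7:104507861-104507910, minus strand: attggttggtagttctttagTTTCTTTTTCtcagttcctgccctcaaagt
Trim26, chr17:36836966-36837015, plus strand: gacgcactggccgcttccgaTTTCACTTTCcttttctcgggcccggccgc
The windows of Trim5 and Trim12a were identical over all 50 bases, as were those of Trim30a and Trim30d, so the 7 genes of chromosome 7 are not 7 separate occurrences. A match is a description of the letters, not of a bound factor.

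Of the 9 genes with the motif, 3 had a higher and 6 a lower mean in Trim9 KO, with a median log2 fold change of -0.35, against 0.31 for the 36 members with a promoter but no motif. The sign for the 9 genes depended on the setting: without WT replicate 2 the 9 genes had 6 higher and 3 lower (median 0.15, against 0.53 without the motif), and with probe sets averaged per gene 5 higher and 4 lower (median 0.21, against 0.04). None of them passed the test, and the genotypes overlapped in all 9. Trim21 read 113, 1563 and 837 in Trim9 KO, against 2157, 769 and 548 in WT. Trim26 read 96.3, 582 and 1037 in Trim9 KO, against 418, 1943 and 1970 in WT. In both genes Trim9 KO replicate 1 was the lowest array. Trim2 was the only gene of the 9 above the array median on every array.

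The promoters of the bright members were richer in CpG dinucleotides. The median number of CpGs in the 300 bases was 27 in the 8 bright genes with a promoter (14 in Trim27 to 46 in Trim44), and 8 in the other 37 (0 to 44). Over all genes the medians were 24 in those above the array median throughout and 14 in the rest, so the order was the same as over all genes. Trim47, which was below the median on every array, had 29, and Trim5 and Trim75, likewise below it, had 1 and 0.

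**Figure D5:**
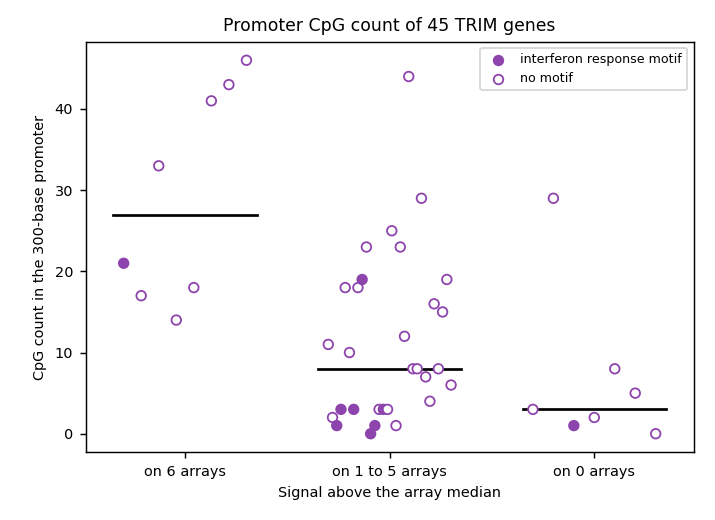
Number of CpG dinucleotides in the 300-base RefSeq promoter of 45 TRIM genes outside class I (the start with the most CpGs), by whether the signal was above the array median on 6, on 1 to 5 or on 0 arrays. Bars are medians (27 for genes above it on 6 arrays), and filled points are the 9 genes with the interferon response motif, of which only Trim2 is in the left group.

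Lists of genes that act with TRIM proteins were read in the same fit, and 0 genes of any list passed the adjusted test. Of 27 interferon response genes measured, 17 had a higher and 10 a lower mean in Trim9 KO (median log2 fold change 0.29, against 0.14 for all genes). With the array medians made equal the split was 13 and 14 (median -0.03). Stat2, a part of the factor that binds the response element, read 910, 652 and 190 in Trim9 KO, against 17.3, 91.3 and 81.2 in WT, without overlap (log2 fold change 2.84, SE 1.02, adjusted p = 0.999 in limma). Irf9, its partner, read 1796, 1256 and 538 in Trim9 KO, against 41.9, 158 and 707 in WT, with overlap (2.48, SE 1.13). Xaf1, an interferon-induced gene of cell death, was on the other side, with 59.0, 233 and 220 in Trim9 KO, against 249, 1003 and 603 in WT (-1.75, SE 1.01). In the list, 2 genes had every Trim9 KO array above every WT array (5.35% of all genes did) and 1 had every one below (2.89%), which is near those shares.

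Of 13 genes of RIG-I signalling, which Trim25 acts on, 9 had a higher and 4 a lower mean (median 0.36). The median over all genes was 0.14. With equal array medians, 8 of the RIG-I genes were higher and 5 lower (0.04, against -0.19 for all genes). Irf3, the transcription factor at the end of that pathway, read 129, 1805 and 2371 in Trim9 KO, against 3458, 2660 and 2949 in WT (-1.82, SE 1.18), and Trim9 KO replicate 1 was its lowest array, as for Trim25. Ikbke, a kinase of Irf3, had -2.09 and Zc3hav1, an antiviral RNA-binding protein, 1.55. Of 21 genes listed for the Trim28 repressor complex and its KRAB partners, 13 had a higher and 8 a lower mean (median 0.14, the same as all genes). The list is broader than the complex itself. With equal array medians 7 of its genes were higher and 14 lower (-0.18). Widest in the list was Uhrf1, a reader of methylated DNA, with 3816, 375 and 46.8 in Trim9 KO, against 11.2, 19.5 and 25.2 in WT. Its genotypes did not overlap (3.74, SE 1.36, adjusted p = 0.999 in limma). Rbbp7 and Rbbp4, histone-binding subunits, had 1.18 and 0.96 with overlap.

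Of 12 genes of Pml nuclear bodies, 6 had a higher and 6 a lower mean (median 0.33, against 0.14 for all genes). With equal array medians the split was again 6 and 6, and the median was 0.01. The DNA repair nuclease Mre11a had 1.85, the SUMO ligase Pias1 -1.53 and the SUMO protease Senp1 1.55. Of 18 genes named as targets of TRIM ligases in neurons and muscle, 6 had a higher and 12 a lower mean (median -0.49). Marker genes of retinal neurons and glia lay the same way, with 0 of 4 rod, 0 of 3 cone, 0 of 3 Muller glia, 0 of 3 amacrine and 0 of 3 horizontal cell genes higher in Trim9 KO and median log2 fold changes of -0.56, -1.51, -1.22, -0.72 and -0.99. The 1 bipolar gene measured was also lower, and 55.2% of all genes were higher. Some of these counts rested on single arrays. Without WT replicate 1, 1 of 3 Muller glia genes (median -0.11) and 1 of 4 rod genes were higher. The rods also had 1 of 4 higher without Trim9 KO replicate 2 or 3, and the Muller glia 1 of 3 without Trim9 KO replicate 1. Without WT replicate 3, 1 of 3 cone and 1 of 3 amacrine genes were higher. The summed intensity of the cone genes was 9249 to 14391 in Trim9 KO and 14845 to 55838 in WT, while the sums of the other lists overlapped. Of the ganglion cell genes 2 of 3 were higher, as were 4 of 5 pigment epithelium and 3 of 3 erythroid genes. With equal array medians 0 of 3 ganglion cell genes were higher (median -0.12), and after quantile normalization 1 of 3 (-0.24). Without WT replicate 3 all 3 were higher, and without any other single array 1 of 3. The lower pigment epithelium gene was Rlbp1, which was also counted among the Muller glia genes. Of the striated muscle genes 4 of 6 were higher, of the lens genes 3 of 4, and of the microglia and macrophage genes 2 of 5. The part of these marker differences in the values of the target genes was not tested. Nefm, a neurofilament subunit, read 115, 530 and 326 in Trim9 KO, against 745, 4014 and 12768 in WT, without overlap (-3.55, SE 1.19, adjusted p = 0.999 in limma). The other neurofilament subunits overlapped, with 0.20 for Nefl (SE 1.01), the subunit Trim2 acts on, and -0.42 for Nefh (SE 1.14). Pias4, a SUMO ligase and target of Trim32, read 299, 604 and 555 in Trim9 KO, against 761, 1288 and 1884 in WT (-1.37, SE 0.93), and Dlg4, a postsynaptic scaffold, had -1.76 with overlap. The ligase genes Trim2 and Trim32 themselves had -0.35 and -0.69, with overlap, in the same fit.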

How the data were processed

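Values were read from the deposited series table, which holds linear intensity that the authors scaled on each array to the same trimmed mean. The submitters' processing notes name MAS5 with no version, and the methods state RMA; the linear scale and unequal medians are those of MAS5. After removal of 64 control probe sets, log2(intensity + 16) of the other 45037 was fitted with limma 3.58.1 (lmFit, eBayes) in R 4.3.3, with Benjamini-Hochberg adjustment. The code was tested on simulated data of much smaller spread than these arrays have. That test does not show what differences could be found here. Probe sets that name several genes (932) or none (9160) were not assigned. The rule for named genes took in Trim9, the genes stained in the study, the 10 lowest unadjusted p, members without overlap, the brightest of each class, ends of ranges, and up to 3 per partner list. Other members are given for completeness. Members, classes and lists were chosen with earlier results of these data known. As alternatives the arrays were quantile normalized or brought to equal medians, dim probe sets were removed, replicate number was blocked, the prior was made robust with a trend, probe sets were averaged per gene, 1 or 64 replaced the pseudocount of 16, and each array was dropped in turn. Classes, motif groups and lists were also counted under such settings after the data were seen. Promoters were searched in Python 3.11.15.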

Additional observations from a re-analysis of the deposited data

How the results depend on the processing

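No TRIM gene outside class I passed the adjusted test under any of the alternatives, and the count with every Trim9 KO array below every WT array was 2 or 3 (Trim43a throughout, with Trim60 in place of Trim75 after quantile normalization and with equal medians) except after the filter on dim probe sets (0, with 35 of the 55 genes left) and when an array was left out (2 to 4, with 4 without Trim9 KO replicate 3 or WT replicate 3). The count with every one above, 1, was 4 after quantile normalization, 3 with equal array medians, 2 with probe sets averaged per gene, and 2 to 11 when an array was left out (5, 2 and 6 without Trim9 KO replicates 1, 2 and 3, and 3, 11 and 3 without WT replicates 1, 2 and 3). With an array left out, genotypes part without overlap more easily, and the share over all genes was not counted in any alternative. The counts are therefore not read as a result about the members. The members' median was -0.05 without WT replicate 3 and 0.49 without WT replicate 2. Same-numbered Trim9 KO and WT arrays had correlations of deviations of -0.23, -0.08 and 0.03. These values cannot settle whether the replicate numbers mark littermate pairs. With the replicate block no TRIM gene passed, the counts without overlap were 2 and 1, and 864 probe sets had an unadjusted p under 0.05 in limma. Among 24 named genes, the log2 fold change turned in 9 of 185 values under the settings that keep all arrays: Trim42 (-0.25) under quantile normalization; Trim33 (-0.053), Trim42 (-0.30) and Trim44 (-0.18) with equal medians; and Trim23 (-0.48), Trim26 (0.55), Trim33 (-0.064), Trim37 (-0.28) and Trim62 (-0.15) with probe sets averaged per gene. It turned in 15 of 144 values when an array was left out, in 7 genes: Trim12a (-0.24 to 1.38), Trim13 (-0.60 to 1.20), Trim28 (-2.78 to 0.87), Trim33 (-0.077 to 0.49), Trim42 (-0.52 to 0.51), Trim44 (-0.064 to 0.48) and Trim56 (-0.50 to 0.47). The cause was not tested. For dim genes the intensity near background limits what a fold change can show.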

Other observations

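The 5 probe sets that name a TRIM gene together with a second gene entered no comparison above. The one for H2aw and Trim17, a histone gene beside a TRIM gene, read 7020, 2812 and 1916 in Trim9 KO, against 2734, 6411 and 10010 in WT, and was above the array median on all 6 arrays. The one for Trim30d and Trim30a read 1492, 536 and 152 in Trim9 KO, against 426, 1568 and 110 in WT, with the same highest arrays in each genotype as Trim30a alone. Both for Trim34b and Trim34a, and the one for Gm38525 and Trim30b, were above the median on at most 1 array. In none of the 5 did the genotypes part without overlap.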
